A study of Mus musculus with 21 samples.

Results

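The genes described here encode the asialoglycoprotein receptor and the endosome and lysosome proteins that lie along its route into the hepatocyte. They are Asgr1, Asgr2, Eea1, Rab7, Lamp1, Lamp2, Hexa, Ctsd, Ctsb and Ctsl, a list of 10 genes chosen by name for the uptake route of oligonucleotides into liver cells and matched by symbol to the Ensembl mouse identifiers, out of 9657 genes measured. All 10 were measured in every library. The study compared RNA interference agents directed at Ttr, the transthyretin gene, in cultured primary mouse hepatocytes of wild-type genotype collected on day 1. The 7 groups were PBS, the vehicle control, and the agents TTR-1236, TTR-1186 and Reference 4, each at 0.2 µM and at 2 µM, with 3 libraries in each group and 21 in all. Each library was made from total RNA with QuantSeq, a method that reads the 3′ ends of polyadenylated transcripts, so that a transcript contributes about the same number of reads whatever its length. Nothing in the labels ties the 3 libraries of a group to different mice or cultures. Every p-value below therefore measures only the spread between libraries of a group, which may be technical. Unless only the libraries compared were fitted, that spread was pooled over all 7 groups. For the chemistry of each agent, any conjugate on it and the way it was given to the cells, the labels name no value.

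The asialoglycoprotein receptor is a lectin of the hepatocyte surface, built from the subunits encoded by Asgr1 and Asgr2, that binds glycoproteins ending in galactose or N-acetylgalactosamine. It is taken up through clathrin-coated pits, releases its cargo as the endosome acidifies and returns to the surface, while the cargo moves through early and late endosomes to lysosomes, where hydrolases break it down. The receptor is widely used to bring N-acetylgalactosamine-conjugated oligonucleotides into hepatocytes.

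The start-site regions of the genes are shown first because many lysosomal genes carry a shared promoter motif whose core is CACGTG, a sequence bound by helix-loop-helix factors that include TFEB and TFE3. RefSeq entries on build GRCm38.p6, each running from 250 bases before to 50 bases after the start site, were matched for 9 of the 10 genes. Ctsb was the gene with no entry used here. The 5 sequences below run 5′ to 3′ in the direction of the gene, with every CACGTG in capitals. They are the windows of Asgr2, Ctsl and Eea1, the genes whose transcripts changed between doses, and those of Lamp1 and Ctsd, which held the most matches. They lie at chr11:70092394-70092693 on the plus strand for Asgr2, chr13:64370471-64370770 on the minus strand for Ctsl, chr10:95940413-95940712 on the plus strand for Eea1, chr8:13158911-13159210 on the plus strand for Lamp1 and chr7:142387778-142388077 on the minus strand for Ctsd.
Asgr2: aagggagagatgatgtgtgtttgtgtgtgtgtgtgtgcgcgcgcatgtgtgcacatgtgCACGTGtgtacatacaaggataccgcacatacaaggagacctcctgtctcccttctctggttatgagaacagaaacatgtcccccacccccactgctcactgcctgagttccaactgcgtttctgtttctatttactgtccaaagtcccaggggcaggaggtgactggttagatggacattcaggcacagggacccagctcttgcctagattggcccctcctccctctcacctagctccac
Ctsl: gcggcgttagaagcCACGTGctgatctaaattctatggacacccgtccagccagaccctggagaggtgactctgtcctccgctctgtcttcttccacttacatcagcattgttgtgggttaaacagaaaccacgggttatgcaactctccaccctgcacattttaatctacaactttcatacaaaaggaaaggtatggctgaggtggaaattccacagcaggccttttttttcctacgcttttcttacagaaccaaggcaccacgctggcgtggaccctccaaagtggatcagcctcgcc
Eea1: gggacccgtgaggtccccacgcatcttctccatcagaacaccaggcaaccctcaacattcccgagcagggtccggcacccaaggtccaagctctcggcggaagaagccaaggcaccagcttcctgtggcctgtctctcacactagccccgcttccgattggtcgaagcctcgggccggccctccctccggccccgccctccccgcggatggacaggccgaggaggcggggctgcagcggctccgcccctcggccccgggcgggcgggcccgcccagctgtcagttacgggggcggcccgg
Lamp1: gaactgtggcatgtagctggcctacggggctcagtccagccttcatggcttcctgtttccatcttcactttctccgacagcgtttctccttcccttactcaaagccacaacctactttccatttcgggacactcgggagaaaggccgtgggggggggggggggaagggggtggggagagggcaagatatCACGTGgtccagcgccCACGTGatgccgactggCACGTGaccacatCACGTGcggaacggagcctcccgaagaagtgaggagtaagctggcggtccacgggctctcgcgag
Ctsd: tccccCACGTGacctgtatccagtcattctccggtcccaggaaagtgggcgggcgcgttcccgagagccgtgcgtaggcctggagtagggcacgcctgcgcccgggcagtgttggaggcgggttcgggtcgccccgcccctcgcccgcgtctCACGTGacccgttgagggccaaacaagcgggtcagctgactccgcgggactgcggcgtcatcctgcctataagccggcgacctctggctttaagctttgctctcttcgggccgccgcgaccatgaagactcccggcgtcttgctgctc
Lamp1 held 4 copies of CACGTG, starting at -61, -45, -28 and -15 from the start site. Ctsd held 2, at -245 and -98. Asgr2 held 1, at -191, and Ctsl held 1, at -236. The Ctsl window lies wholly inside the annotated gene, chr13:64359337-64370890 on the minus strand. Its match is therefore downstream of the annotated 5′ end of Ctsl, and the window may not be the promoter of the transcript counted. The Ctsd window lies mostly inside its annotated gene, chr7:142375911-142388038 on the minus strand. Its match at -98 is thus also downstream of the annotated 5′ end, and its match at -245 is upstream. The motif was not found in the windows of Asgr1, Lamp2, Hexa, Eea1 or Rab7. CACGTG reads the same on both strands. It occurred in 2349 of 32851 promoters of the same length, or 7.15%. At least 4 copies occurred in 8 of those promoters, or 0.0244%. These matches describe the letters of each window and do not show a bound factor.

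Library depth, summed over the measured genes, ranged from 14158740 to 37410773 reads. In Reference 4 it was 14158740 to 14971332 at 0.2 µM and 18802476 to 32927430 at 2 µM, with no overlap, whereas the doses of the other agents overlapped. The part of depth in the dose step of Reference 4 was not tested. Ttr, the targeted gene, was at 2168 to 2336 CPM (reads of a gene per 1000000 reads of the library) in the PBS libraries and at 3.19 to 27.1 CPM in the 18 treated libraries, which separates treated from PBS libraries and does not check the agent or the dose. Of 8 hepatocyte markers, 7 were measured, among them Alb, the albumin gene, at 3559 to 7257 CPM. Of 12 Kupffer cell and macrophage markers, 2 were measured, Cd68 at 67.9 to 174.6 CPM and Csf1r at 5.87 to 14.4 CPM, and the other marker lists held 3 of 8 sinusoidal endothelium genes, 2 of 8 stellate cell genes, 2 of 5 cholangiocyte genes and 0 of 5 leukocyte genes. Several libraries stood apart from the others of their group. The mitochondrial rRNAs (mt-Rnr1 plus mt-Rnr2) made up 3.26% and 2.70% of CPM in PBS replicates 1 and 2 and 0.797% in replicate 3. In TTR-1186 2 µM it made up 1.95% and 2.21% in replicates 1 and 3 and 0.622% in replicate 2, which also listed 109 genes at 0 against a median of 2 genes over all libraries. Several results that rest on these libraries are given with and without them.

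**Figure D1:**
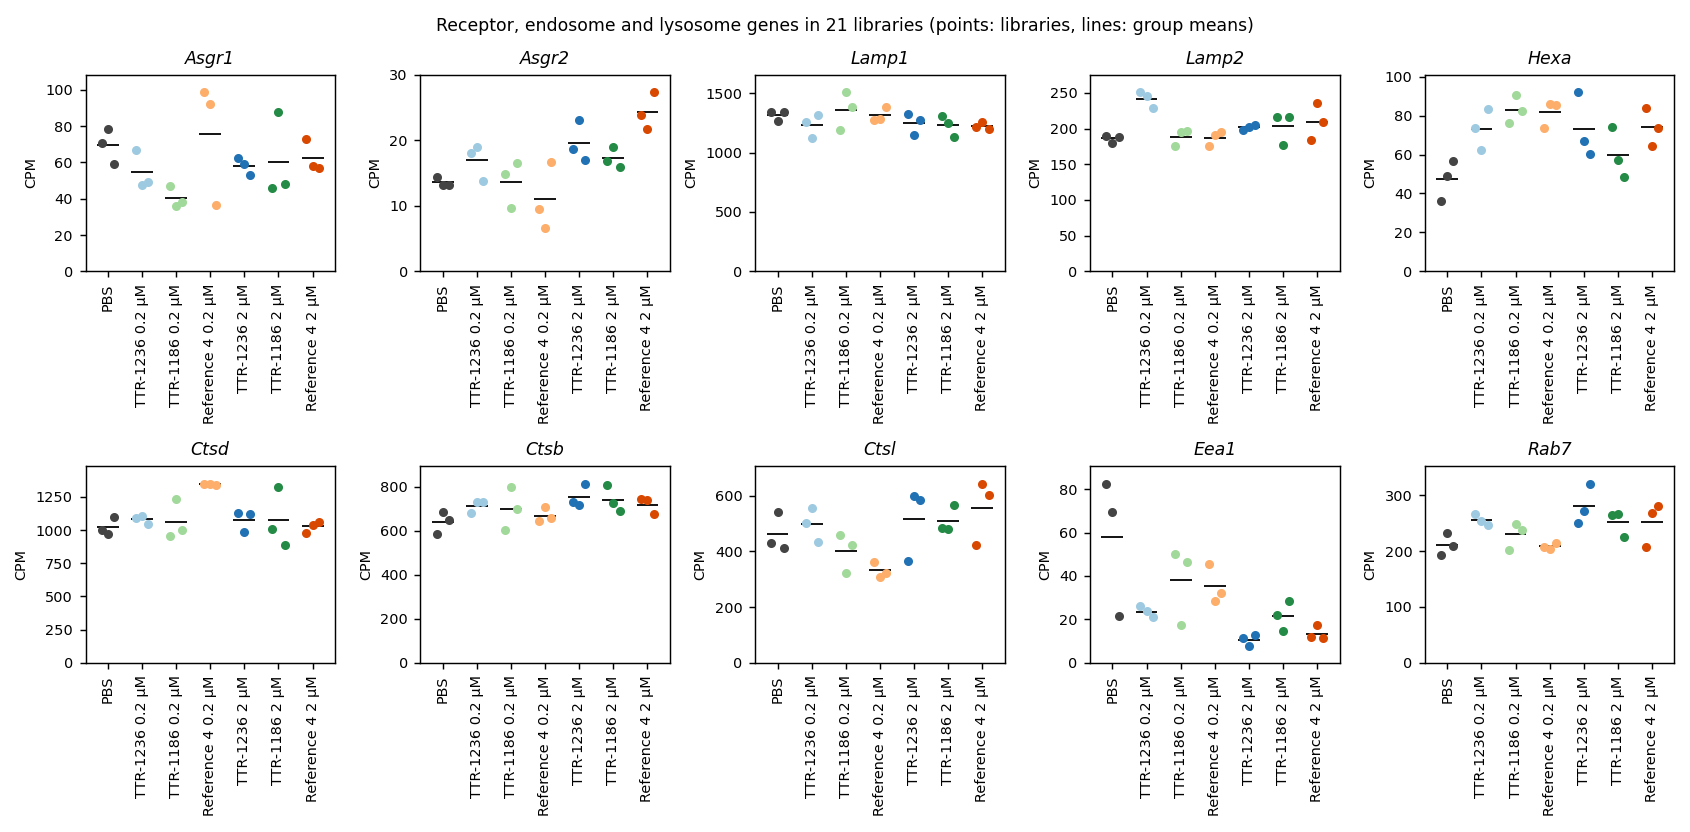
Level in CPM (vertical axes, from 0) of each gene in every library, by group; points are libraries and lines are group means. Eea1 runs from 7.60 to 82.5 CPM and Asgr2 from 6.68 to 27.3 CPM, whereas Lamp1 stays between 1123 and 1506 CPM.

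The 10 genes differed widely in how much they varied. The ratio of the highest to the lowest of the 21 libraries was 10.9 for Eea1, 4.09 for Asgr2, 2.72 for Asgr1, 2.54 for Hexa and 2.08 for Ctsl. It was 1.67 for Rab7, 1.52 for Ctsd, 1.43 for Lamp2, 1.39 for Ctsb and 1.34 for Lamp1. The median of this ratio over 7430 genes averaging 10 CPM or more was 2.64, so Eea1, Asgr2 and Asgr1 lay above it and the other 7 genes below. The differences below are on the scale log2(CPM + 1), which understates the change of genes at low CPM, and each was tested with limma across all 9657 genes, with Benjamini-Hochberg adjustment and a threshold of 0.05. Because the measurements are of bulk RNA, fewer cells of a type and less RNA per cell cannot be told apart.

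Asgr1 (ENSMUSG00000020884, chr11:70054085-70057894, plus strand, build mm10) encodes the major subunit of the receptor, and Asgr2 (ENSMUSG00000040963, chr11:70092644-70106187, plus strand) the minor subunit. Asgr1 was not detectably changed by any agent at either dose. In the PBS libraries Asgr1 was at 70.6, 78.6 and 59.3 CPM, a mean of 69.5 ± 9.70 (SD, n = 3). At 0.2 µM it was at 66.7, 47.9 and 49.0 CPM with TTR-1236, at 47.3, 36.3 and 38.4 CPM with TTR-1186, and at 98.6, 92.0 and 36.4 CPM with Reference 4. At 2 µM it was at 62.4, 59.2 and 53.3 CPM with TTR-1236, at 45.7, 87.8 and 48.1 CPM with TTR-1186, and at 73.0, 58.0 and 57.1 CPM with Reference 4. Only the TTR-1186 0.2 µM libraries all lay below the PBS libraries, with a log2 difference of -0.76 (95% confidence interval -1.35 to -0.17) and an adjusted p of 0.370 by limma. In the order of group means, from Reference 4 0.2 µM through PBS, Reference 4 2 µM, TTR-1186 2 µM, TTR-1236 2 µM and TTR-1236 0.2 µM to TTR-1186 0.2 µM, every pair of neighbours overlapped except the last. Reference 4 0.2 µM replicate 3 and TTR-1186 2 µM replicate 2 lay far from the other libraries of their groups, in opposite directions, and the SD of those groups was 34.2 and 23.7 CPM.

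Asgr2 rose between the doses of Reference 4. It was at 9.53, 6.68 and 16.7 CPM at 0.2 µM and at 23.8, 21.8 and 27.3 CPM at 2 µM, and every library at the higher dose was above every library at the lower one. The log2 difference was 1.16 ± 0.28 (SE, n = 3 a group), with an adjusted p of 0.0107 by limma. In that comparison 3 of the 10 genes changed, Asgr2 and Ctsl upward and Eea1 downward, beside 12.8% of all genes (6.78% upward and 6.05% downward). The PBS libraries were at 14.5, 13.1 and 13.2 CPM, between both doses apart from Reference 4 0.2 µM replicate 3. The difference from PBS was 0.79 at 2 µM (adjusted p = 0.111) and -0.37 at 0.2 µM (adjusted p = 0.577). The latter was -0.09 without Reference 4 0.2 µM replicate 2 and -0.70 without its replicate 3. For the dose step, leaving out Reference 4 0.2 µM replicate 2 gave 0.88 with an adjusted p of 0.0644, and leaving out Reference 4 2 µM replicate 3 gave 1.08 with an adjusted p of 0.0685.

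With the other agents the dose step of Asgr2 did not pass the test. TTR-1236 libraries were at 18.1, 19.0 and 13.8 CPM at 0.2 µM and 18.7, 23.1 and 17.0 CPM at 2 µM. TTR-1186 libraries were at 14.9, 9.68 and 16.5 CPM at 0.2 µM and 16.9, 19.0 and 15.97 CPM at 2 µM. Both agents' doses overlapped, with log2 differences of 0.20 and 0.34 and adjusted p of 0.846 and 0.584. The test of the difference itself did not pass: the dose step of TTR-1236 less that of Reference 4 was -0.96 (adjusted p = 0.419), and that of TTR-1186 less that of Reference 4 was -0.82 (adjusted p = 0.551). Averaged over the 3 agents, Asgr2 rose by 0.57 ± 0.16 between 0.2 and 2 µM (adjusted p = 0.0166), and the adjusted p stayed between 0.00523 and 0.0417 when each of the 18 treated libraries was left out in turn.

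The balance between the subunits' transcripts also differed between libraries. The ratio of Asgr1 to Asgr2 CPM was 4.88, 5.98 and 4.49 in PBS, and its median over all libraries was 3.18. In Reference 4 0.2 µM it was 10.3 and 13.8 in replicates 1 and 2, the highest values of all 21 libraries, and 2.18 in replicate 3. The lowest ratio, 2.09, was in Reference 4 2 µM. The ratio is of 3′ tag counts and was compared between libraries only. Over the 21 libraries, which differ in depth and include replicates of the same groups, the Pearson correlation of log2(CPM + 1) of Asgr1 with that of Asgr2 was -0.19, given as a description.

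**Figure D2:**
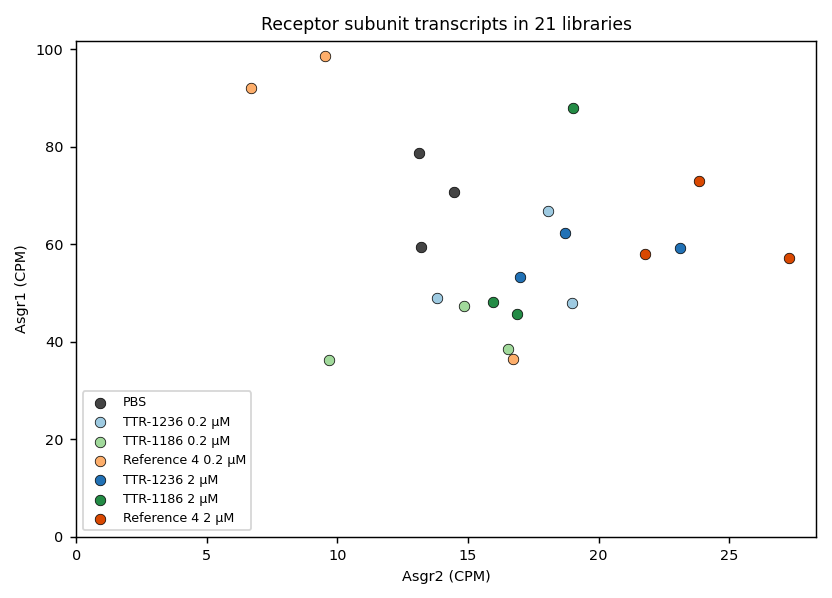
Asgr1 against Asgr2, both in CPM, with 1 point for each of the 21 libraries, coloured by group. The Reference 4 2 µM libraries lie toward the right, at 21.8 to 27.3 CPM of Asgr2, and Reference 4 0.2 µM replicates 1 and 2 lie at the upper left.

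Several hepatocyte markers rose, as Asgr2 and Ctsl did, between the doses of Reference 4. Of the 7 measured, 4 were called higher, beside 6.78% of all genes. These were Alb by 0.80, Cyp2e1 by 2.36, Hnf4a by 0.91 and Cps1 by 1.27 on the log2 scale. None of the 7 was called lower, and 6 of the 7 had a difference above 0. Cyp2e1 and Cps1 were at low levels, with means of 4.31 and 6.96 CPM at 0.2 µM and 24.6 and 18.1 CPM at 2 µM. The summed CPM of the list was 11781 to 14659 at 0.2 µM and 15963 to 18209 at 2 µM. Of the 2 stellate cell and fibroblast markers measured, Acta2 fell by 1.28 and Dcn had a difference of 0.46 (adjusted p = 0.395). The 2 cholangiocyte markers measured were both above 0 and not called. Their summed CPM was 24.5 to 43.2 at 0.2 µM and 44.5 to 48.2 at 2 µM, with no overlap. Above 0 were 1 of 2 Kupffer cell and macrophage markers and 1 of 3 sinusoidal endothelium markers, and none of these was called. In the mean dose step over the 3 agents, 3 of the 7 hepatocyte markers rose, beside 8.8% of all genes. These were Alb by 0.39, Cyp2e1 by 1.23 and Hnf4a by 0.47. The part of these differences in the result for Asgr2 and Ctsl was not tested.

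Eea1 (ENSMUSG00000036499, chr10:95940650-96045518, plus strand) encodes a tether of the early endosome membrane that is recruited by RAB5 and by phosphatidylinositol 3-phosphate. Its transcript was lower at 2 µM than in PBS with TTR-1236 and with Reference 4, and it fell with dose over the 3 agents together. Eea1 was at 82.5, 69.3 and 21.5 CPM in PBS, a mean of 57.8 ± 32.1 (SD, n = 3). At 2 µM it was at 11.3, 7.60 and 12.97 CPM with TTR-1236, at 11.8, 17.3 and 11.3 CPM with Reference 4, and at 22.0, 14.8 and 28.3 CPM with TTR-1186. All libraries of TTR-1236 and Reference 4 at 2 µM lay below the lowest PBS library, and those of TTR-1186 overlapped it.

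Against PBS, Eea1 fell by 2.16 ± 0.41 (SE) on the log2 scale with 2 µM TTR-1236 (limma, adjusted p = 0.00658) and by 1.84 ± 0.41 with 2 µM Reference 4 (adjusted p = 0.0236). In each of these comparisons it was the 1 gene of the 10 that changed, beside 6.33% of all genes with TTR-1236 (1.44% upward and 4.89% downward) and 2.25% with Reference 4 (0.59% upward and 1.66% downward). The comparisons share the PBS libraries. When only the libraries compared were fitted, neither call was kept, with a limma adjusted p of 0.0742 for TTR-1236 and 0.0773 for Reference 4. The difference with 2 µM TTR-1186 was -1.21 (95% confidence interval -2.06 to -0.36, adjusted p = 0.339), and there 0 of the 10 genes changed, beside 0.0518% of all genes.

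PBS replicate 3 lay far below the other PBS libraries. Without PBS replicate 3, Eea1 differed by -2.75 with 2 µM TTR-1236 (adjusted p = 8.83e-05), by -2.43 with 2 µM Reference 4 (adjusted p = 0.000333) and by -1.80 with 2 µM TTR-1186 (adjusted p = 0.0376). Without PBS replicate 1 or without replicate 2 the difference with TTR-1236 was -1.80 and -1.93, with an adjusted p of 0.0673 and 0.0555. The call for Reference 4 was also lost there, at an adjusted p of 0.151 when PBS replicate 1 was left out and 0.119 when PBS replicate 2 was. Leaving out replicate 1 of its own 2 µM group gave 0.0651, and replicate 3 gave 0.105.

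At 0.2 µM Eea1 was at 26.1, 23.7 and 20.96 CPM with TTR-1236, at 50.2, 17.2 and 46.4 CPM with TTR-1186 and at 45.4, 28.3 and 32.04 CPM with Reference 4. Every one of these groups overlapped PBS. The log2 differences from PBS were -1.06, -0.53 and -0.52, with adjusted p of 0.627, 0.722 and 0.597. At this dose 0 of the 10 genes changed with any agent, beside 0.0207% of all genes with TTR-1236, 0.0311% with TTR-1186 and 0.166% with Reference 4. Without PBS replicate 3, Eea1 differed by -1.65 with 0.2 µM TTR-1236 (adjusted p = 0.0378), by -1.12 with TTR-1186 (adjusted p = 0.126) and by -1.11 with Reference 4 (adjusted p = 0.0928). Without PBS replicate 1 these were -0.70, -0.17 and -0.16, and without PBS replicate 2 they were -0.82, -0.29 and -0.29. Leaving out TTR-1186 0.2 µM replicate 2, the lowest of its group, gave -0.05 for that agent.

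The dose step does not use the PBS libraries. Averaged over the 3 agents, Eea1 fell by 1.04 ± 0.24 (SE, 9 libraries against 9) from 0.2 to 2 µM, with an adjusted p of 0.00516, which lay between 0.000888 and 0.0136 when each treated library was left out in turn. In that comparison 3 of the 10 genes changed, 2 upward and 1 downward, beside 18.9% of all genes (8.8% upward and 10.1% downward). By agent, the step was -1.32 for Reference 4 (adjusted p = 0.0364), -1.104 for TTR-1236 (adjusted p = 0.283) and -0.68 for TTR-1186 (adjusted p = 0.448). The libraries of the 2 doses did not overlap for Reference 4 or TTR-1236 and overlapped for TTR-1186. The step of TTR-1186 ran from -0.41 without its 0.2 µM replicate 1 to -1.16 without its 0.2 µM replicate 2, and was -0.44 without its 2 µM replicate 2. The call for Reference 4 was lost whichever of its 6 libraries was left out, with adjusted p from 0.0535 to 0.146. Between the doses of TTR-1236 and of TTR-1186, 0 of the 10 genes changed, beside 0.135% and 0.0% of all genes.

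Eea1 is set beside the mitochondrial ribosomal RNA share of each group. That share ranged over 0.278 to 0.487% in TTR-1236 2 µM, 0.383 to 1.098% in Reference 4 2 µM, 0.622 to 2.21% in TTR-1186 2 µM and 1.47 to 3.73% in the 0.2 µM groups. The library with the lowest share also had the lowest Eea1 of its group in 4 of the 7 groups: PBS, TTR-1186 at both doses and Reference 4 2 µM. In TTR-1236 at both doses and in Reference 4 0.2 µM these were different libraries, and TTR-1236 2 µM replicate 3, with the lowest share of all 21 libraries, had the highest Eea1 of its group. The part of the share in the difference of Eea1 was not tested.

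**Figure D3:**
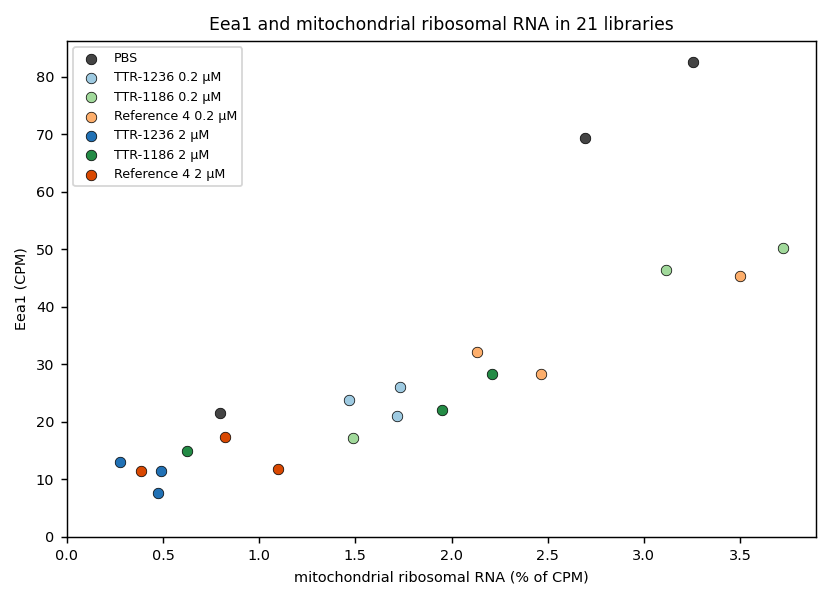
Eea1 in CPM (vertical axis) against the share of CPM taken by mitochondrial ribosomal RNA in percent (horizontal axis), with 1 point for each of the 21 libraries, coloured by group. The libraries of TTR-1236 2 µM and Reference 4 2 µM lie at the lower left, and PBS replicate 3 lies there too, at 21.5 CPM and 0.797%.

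The genes whose levels were most like that of Eea1 over the 21 libraries, by Pearson correlation of log2(CPM + 1) among 7429 genes averaging 10 CPM or more, were Klf6 at 0.94, Shtn1, Csnk1a1, Clip1 and Ktn1, each of the last 4 at 0.93. For Asgr1 the same ranking gave Ccdc84 at 0.86, Ei24 at 0.83, Chchd7 at 0.83, Fbl at 0.81 and Rcl1 at 0.81. Ccdc84 overlaps Rps25 on the opposite strand, with which it correlated at 0.91. All of these correlations are across libraries that share groups and differ in depth, and they are given as descriptions.

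Rab7 (ENSMUSG00000079477, chr6:87999106-88045270, minus strand) encodes the small GTPase that marks late endosomes and directs their fusion with lysosomes. No difference of Rab7 passed the test. It was at 193 to 233 CPM in PBS and at 249.6 to 320.8 CPM with 2 µM TTR-1236, ranges that did not overlap. The log2 difference was 0.41 (95% confidence interval 0.11 to 0.70), with an adjusted p of 0.0842 by limma. DESeq2 on the reads recovered from the CPM gave 0.50 with an adjusted p of 0.0155. With 2 µM TTR-1186 and 2 µM Reference 4 the differences from PBS were 0.25 and 0.25, and the ranges overlapped PBS. Between Rab7 and Eea1 the correlation over the 21 libraries was -0.62, and between Rab7 and Ctsb it was 0.69.

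Lamp1 (ENSMUSG00000031447, chr8:13159161-13175338, plus strand) and Lamp2 (ENSMUSG00000016534, chrX:38401357-38456454, minus strand) encode the main glycoproteins of the lysosome membrane. Neither changed in any comparison. Lamp1 group means ran from 1224 ± 29.3 CPM in Reference 4 2 µM to 1361 ± 157 CPM in TTR-1186 0.2 µM (SD, n = 3 each), and all neighbours in the order of groups overlapped. Its log2 differences, over every comparison made, lay between -0.14 and 0.16. Lamp1 shares 3317 bases with Grtp1 on the opposite strand, and the CPM of Grtp1 was 0.917 to 0.987 of that of Lamp1 in every library. Since the labels name no strand setting for the counting, reads of these 2 genes cannot be told apart.

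Lamp2 was at 228 to 251 CPM with 0.2 µM TTR-1236 and at 180 to 190 CPM in PBS, with no overlap, and the log2 difference was 0.37 with an adjusted p of 0.540. With the same agent at 2 µM it was at 198 to 205 CPM, a difference from PBS of 0.12. In the remaining groups Lamp2 ranged from 175 to 235 CPM.

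Among the hydrolases, Hexa and Ctsl varied more than Lamp1 and Lamp2, and Ctsb did not vary more than Lamp2. Hexa (ENSMUSG00000025232, chr9:59539540-59565109, plus strand) encodes the alpha subunit of beta-hexosaminidase, which cleaves terminal hexosamines from gangliosides and glycans. It was lowest in PBS, at 36.2, 48.8 and 56.7 CPM, a mean of 47.2 ± 10.3 (SD, n = 3). At 0.2 µM it was at 73.7, 62.3 and 83.2 CPM with TTR-1236, at 76.0, 90.5 and 82.5 CPM with TTR-1186 and at 73.7, 86.2 and 85.4 CPM with Reference 4. At 2 µM it was at 91.9, 67.0 and 60.5 CPM with TTR-1236, at 74.1, 57.3 and 48.5 CPM with TTR-1186 and at 84.1, 64.4 and 73.8 CPM with Reference 4. Every group but TTR-1186 2 µM lay wholly above the PBS libraries.

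With all libraries, none of the differences of Hexa from PBS passed the limma test. They were 0.63, 0.82 and 0.80 at 0.2 µM for TTR-1236, TTR-1186 and Reference 4, with adjusted p of 0.512, 0.133 and 0.0972. At 2 µM they were 0.62, 0.34 and 0.65 in the same order, with adjusted p of 0.0626, 0.601 and 0.0729. The mean of the 6 treated groups was 0.64 ± 0.15 (SE) above PBS (adjusted p = 0.0813), and in that comparison 0 of the 10 genes changed, beside 0.0725% of all genes. Without PBS replicate 3, the highest PBS library, the mean difference was 0.79 with an adjusted p of 0.0124. With each of the 21 libraries left out in turn it ran from 0.47 to 0.79, with adjusted p from 0.0124 to 0.586. By agent, without PBS replicate 3 limma called Hexa with 0.2 µM TTR-1186 at 0.96 and with 0.2 µM Reference 4 at 0.94 (adjusted p = 0.0426 and 0.0313). At 2 µM it then called TTR-1236 at 0.76 and Reference 4 at 0.79 (adjusted p = 0.0165 and 0.0173). The other agent at each dose was not called there. With other single libraries left out, the adjusted p of these differences reached 0.468, 0.295, 0.293 and 0.321, in the same order. DESeq2 on the recovered reads called Hexa with 0.2 µM TTR-1186 and Reference 4 and with 2 µM TTR-1236 and Reference 4, at adjusted p from 0.0285 to 0.0438.

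Ctsl (ENSMUSG00000021477, chr13:64359337-64370890, minus strand) encodes cathepsin L, a cysteine protease of the lysosome. It rose between the doses of Reference 4, from 363, 309 and 323 CPM at 0.2 µM to 424, 643 and 603 CPM at 2 µM, with no overlap. The log2 difference was 0.72 ± 0.19 (SE), with an adjusted p of 0.0160 by limma. Leaving out Reference 4 0.2 µM replicate 2 gave an adjusted p of 0.0612, and leaving out Reference 4 2 µM replicate 2 or replicate 3 gave 0.0797 and 0.0941. The PBS libraries, at 431, 542 and 411 CPM, overlapped the higher dose and lay above the lower one, with differences of 0.26 (adjusted p = 0.469) and -0.47 (adjusted p = 0.252).

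With TTR-1236 Ctsl was at 502, 557 and 435 CPM at 0.2 µM and 364, 599.8 and 584 CPM at 2 µM, and with TTR-1186 at 458, 321 and 421 CPM and then 483, 482 and 566 CPM. The TTR-1186 doses did not overlap, and those of TTR-1236 did. The steps were 0.02 (adjusted p = 0.983) and 0.36 (adjusted p = 0.370). The mean step over the 3 agents was 0.37 ± 0.11 with an adjusted p of 0.0203, and leaving out each treated library in turn gave 0.00285 to 0.0495. Among pairs of the 10 genes, Ctsl and Asgr2, which rose in the same comparisons, correlated at 0.67 over the 21 libraries, and Ctsl and Lamp1 at -0.68.

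Ctsd (ENSMUSG00000007891, chr7:142375911-142388038, minus strand) encodes cathepsin D, an aspartic protease. It was at 1340 to 1349 CPM in the Reference 4 0.2 µM libraries, above all 3 libraries of PBS, at 971 to 1101 CPM, and of Reference 4 2 µM, at 978 to 1061 CPM. The difference from PBS was 0.40 (adjusted p = 0.169), and the step from 0.2 to 2 µM was -0.39 with an adjusted p of 0.0509. Restricting the table to genes averaging 10 CPM or more gave 0.0470 for the step, and fitting only the libraries compared gave 0.0269. Leaving out any of the 6 libraries gave an adjusted p between 0.0908 and 0.127. Ctsb (ENSMUSG00000021939, chr14:63122462-63145923, plus strand), which encodes cathepsin B, a cysteine protease, was at 586 to 688 CPM in PBS and 602 to 814 CPM in the treated libraries. No comparison called Ctsb, and its log2 differences lay between -0.03 and 0.24. Ctsb shares 774 bases with Fdft1 on the opposite strand, whose CPM was 0.0872 to 0.190 of that of Ctsb.

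**Figure D4:**
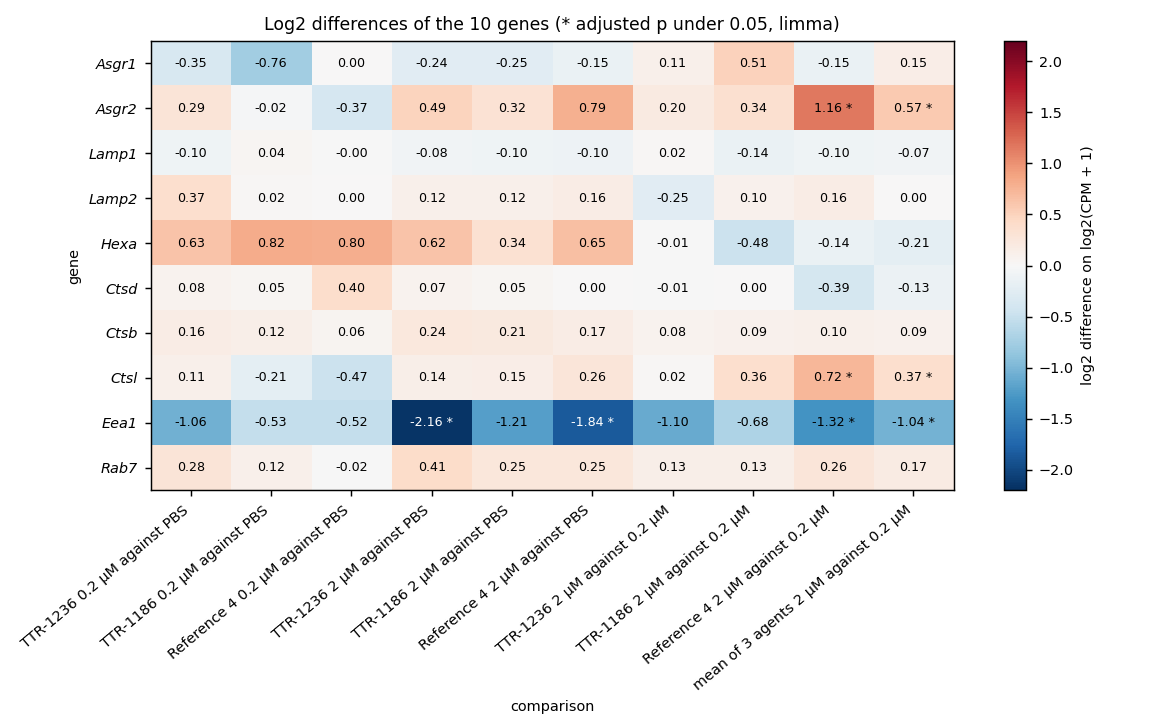
Log2 difference of each gene, on the log2(CPM + 1) scale, in each comparison against PBS and between doses; each cell holds 1 fitted difference, and a star marks an adjusted p under 0.05. Eea1 is marked in 4 comparisons, at -2.16, -1.84, -1.32 and -1.04, and Asgr2 and Ctsl in the Reference 4 dose comparison and the mean over agents.

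Agents were also compared with each other at matched doses, and 0 of the 10 genes differed. The share of all genes that differed was 0.0% for each of the 3 pairs at 0.2 µM and for TTR-1236 against Reference 4 at 2 µM, 0.373% for TTR-1186 against Reference 4 at 2 µM and 0.342% between TTR-1236 and TTR-1186 at that dose. For Asgr1, the widest difference was that of TTR-1186 against Reference 4 at 0.2 µM, -0.76 (95% confidence interval -1.35 to -0.17, adjusted p = 0.948). It was -1.22 (adjusted p = 0.0750) without Reference 4 0.2 µM replicate 3 and -0.51 without that group's replicate 1. For Eea1 it was between TTR-1236 and TTR-1186 at 2 µM, with TTR-1236 lower, -0.95 (-1.80 to -0.10, adjusted p = 0.261). For Ctsl it was that of TTR-1236 against Reference 4 at 0.2 µM, 0.58 (0.19 to 0.97, adjusted p = 0.141), where fitting only the libraries compared gave an adjusted p of 0.0214. For Asgr2 the widest difference was that of TTR-1236 against Reference 4 at 0.2 µM, 0.66 (0.08 to 1.23, adjusted p = 0.276). With single libraries left out it ran from 0.38 to 0.99. Against Reference 4 at 2 µM, the interval for Asgr2 was -0.88 to 0.27 for TTR-1236 and -1.04 to 0.11 for TTR-1186. The tests of whether the dose step differed between agents called 0 of the 10 genes for each of the 3 pairs, beside 0.0% of all genes.

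Other genes of the same route were followed in lists chosen by function. In the mean dose step over the 3 agents, 19 of 154 measured list genes were called, or 12.3%, against 18.9% of all genes, so the lists held no more calls than the background. Of 13 measured endocytic receptor genes, M6pr, the cation-dependent mannose 6-phosphate receptor that carries hydrolases to endosomes, rose by 0.55 and Igf2r, the cation-independent one, fell by 1.12. Of 15 clathrin coat and internalisation genes, Picalm, a clathrin assembly protein, rose by 0.28 and Ap2b1, a subunit of the AP-2 adaptor, fell by 0.62. Of 25 early and recycling endosome genes, 1 rose and 2 fell, where 8.8% of all genes rose and 10.1% fell. Snx1, a sorting nexin of retromer, rose by 0.53, while Appl1 and Rabep1, both effectors of RAB5, fell by 0.46 and 0.64. Rabep1 overlaps Nup88 on the opposite strand and correlated with it at 0.69. Of 33 late endosome and fusion genes, none rose and 3 fell: Vps4a by 0.46, Ccz1 by 0.62 and Vps41 by 0.29.

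Among lysosomal genes in the same comparison, 2 of 25 membrane and proton pump genes rose, Atp6v0e by 0.42 and Atp6v1b2 by 0.48, and 1 fell, Atp6ap1 by 0.40. Of 36 hydrolases and activators, 3 rose and 2 fell, where 8.8% of all genes rose and 10.1% fell. Ppt1, a palmitoyl thioesterase, rose by 0.45 and Neu1, a sialidase, by 0.38, whereas Lipa, the acid lipase, fell by 0.45 and Arsa, arylsulfatase A, by 0.81. Of 7 genes of the TFEB family and nutrient sensing, Rraga, a GTPase of the mTORC1 pathway, rose by 0.55. The median log2 difference of each list lay between -0.08 and 0.17, and that of all genes was -0.01.

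For Reference 4 alone, the step from 0.2 to 2 µM called 8 genes of these lists upward and 7 downward, 9.74% of the 154 against 12.8% of all genes. Snx1 rose by 1.30, Atp6v1h, a proton pump subunit, by 1.146, M6pr by 0.98, Vps26a of retromer by 0.83 and Ppt1 by 0.72. Ccz1, which helps to activate RAB7, fell by 1.21, Grn, the progranulin gene, by 0.87, Vti1b, a SNARE protein, by 0.83, Ap2s1 of the AP-2 adaptor by 0.76, Atp6ap1 by 0.75 and Lipa by 0.71. Vti1b overlaps Arg2 on the opposite strand and correlated with it at 0.99, and Ppt1 overlaps Cap1 and correlated with it at 0.92, so their reads cannot be told apart without strand.

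Against PBS, 2 µM TTR-1236 gave 5 calls in the lists, 3.25% of the 154 against 6.33% of all genes. Ap2b1 fell by 0.98, Appl1 by 0.92 and Tfe3, a transcription factor of the TFEB family, by 0.82, while Uvrag, which acts in endosome fusion, rose by 1.23 and Atp6v0b, a proton pump subunit, by 0.66. With 2 µM Reference 4 there were 2, or 1.30% against 2.25% of all genes, Ap2b1, which fell by 0.78, and Vti1b, which fell by 0.84. No gene of the lists was called against PBS with any agent at 0.2 µM or with TTR-1186 at 2 µM. Between agents, 1 list gene was called for TTR-1186 against Reference 4 at 2 µM, 0.649% of the 154 against 0.373% of all genes. It was Vti1b, higher by 1.02 with TTR-1186 (limma, adjusted p = 0.0399).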

How the data were processed

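The authors deposited CPM, the reads of a gene scaled to a fixed library total, in 1 file for each of 21 libraries, each file summing to 1000000 over 9657 genes. Per the submitters' processing notes, the tools were cutadapt 1.15, HISAT2 2.1.0 and featureCounts and the build was mm10. The notes name no settings, strand mode, annotation release or filter on genes, each not given in the sources used here, and the lowest gene mean was 1.22 CPM. CPM fixes every library to the same sum, so a large rise of a few abundant genes lowers all others.

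The planned edgeR test was for raw counts. Since the unit was CPM, limma 3.58.1 (R 4.3.3) was fitted to log2(CPM + 1) over all genes and all 7 groups, with a trended and robust prior and Benjamini-Hochberg adjustment over the 9657 genes of each comparison. Whole reads were recovered by scaling each file (100% of values whole within 0.001 reads, at 14158740 to 37410773 reads a library), and edgeR 4.0.16 and DESeq2 1.42.0 on those reads were alternatives, with other pseudocounts (0.5 and 5), TMM scaling, a minimum mean of 10 CPM, fits of only the libraries compared, a replicate block and each library left out. Depth limits precision little for these genes: the lowest was Asgr2, at 100 to 806 reads a library. Symbols matched 9651 identifiers through the supplied gene names, and coordinates came from a GENCODE annotation of mm10. The procedure was tested on simulated data, with 200 of 9657 genes changed in TTR-1236 2 µM against PBS. It recovered 43% of the 2-fold changes and 81% of the 4-fold changes, and called 9 unchanged genes. A gene not called may thus still have changed.

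The 10 genes and the pathway and marker lists were chosen with earlier results of these data known. All 10 are named in every comparison, from each pathway list at most the 4 genes with the smallest p among those called in a comparison, and the 5 genes most correlated with Asgr1 and with Eea1. Features chosen after their values were seen are the subunit ratio and the mitochondrial ribosomal RNA share. The closest replicates of a group differed by a chi-square of 25.1 per degree of freedom, so no library was counted as a copy of another. List genes outside the 9657 were not analysed here.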

Additional observations from a re-analysis of the deposited data

Results flagged for a closer look

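For Asgr1 the dose step had opposite signs with 2 agents. It was 0.51 on the log2 scale for TTR-1186 and -0.15 for Reference 4. Without TTR-1186 2 µM replicate 2 the first was 0.21. The second was 0.10 and 0.05 without Reference 4 0.2 µM replicates 1 and 2, so its sign rests on single libraries, and -0.60 without replicate 3. The difference between the steps was 0.66 and did not pass the limma test (adjusted p = 0.667). With each library left out in turn it ran from 0.36 to 1.11, with adjusted p from 0.191 to 0.865. For Ctsl the 2 doses of TTR-1186 lay on opposite sides of PBS, at -0.21 for 0.2 µM and 0.15 for 2 µM. With each library left out in turn these ran from -0.32 to -0.06 and from 0.07 to 0.27. The step between these doses was 0.36 (adjusted p = 0.370), and both differences share the PBS libraries.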

How the results depend on the processing

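Of 39 single differences, those at 0.5 or more or called under some setting, none changed sign under any alternative. Of the other 161, 55 did, the largest at 0.42. Counts of the 10 genes called moved as follows. Against PBS at 0.2 µM, where the count was 0, leaving out PBS replicate 3 together with TTR-1186 2 µM replicate 2 (chosen after seeing the data) gave 1 for TTR-1236 (Eea1), 1 for TTR-1186 (Hexa) and 2 for Reference 4 (Ctsd and Hexa), and DESeq2 gave 1 for TTR-1186 and 1 for Reference 4 (Hexa). Against PBS at 2 µM, TTR-1236 went from 1 to 0 when only the libraries compared were fitted (adjusted p = 0.0742 for Eea1), to 2 with edgeR and DESeq2 size factors (Rab7 and Eea1), to 3 with DESeq2 (Rab7, Eea1 and Hexa) and to 2 without both libraries. Reference 4 went from 1 to 0 when the fit held just the compared libraries (Eea1 then had an adjusted p of 0.0773), to 3 with DESeq2 (Eea1, Hexa and Asgr2) and to 2 without both libraries. For all treated groups averaged against PBS the count of 0 became 1 with edgeR under either scaling (Eea1), 2 with DESeq2 and 2 without both libraries (Eea1 and Hexa). With only the libraries compared, 1 gene was called between the doses of TTR-1236 (Eea1) and 1 for TTR-1236 against Reference 4 at 0.2 µM (Ctsl). The Reference 4 dose step went from 3 to 4, with Ctsd added, under that fit, a minimum mean of 10 CPM or both libraries left out. Without both libraries, 1 was called between TTR-1236 and TTR-1186 at 2 µM (Eea1). With single libraries left out, the count ranged from 0 to 1 for each agent at 0.2 µM against PBS and for 2 µM TTR-1186, from 0 to 2 for 2 µM TTR-1236, 2 µM Reference 4 and the treated mean, and from 0 to 2 for the Reference 4 dose step, against 3 with all libraries. It was 0 without Reference 4 0.2 µM replicate 2 or 2 µM replicate 3. The other comparisons kept their counts when libraries were left out. With the replicate number as a block, the counts were 1 for 2 µM TTR-1236 and for 2 µM Reference 4 against PBS and 3 for the Reference 4 dose step and for the mean over agents, as without it. After group means were removed, the median correlation between same-numbered libraries was 0.061, -0.041 and -0.004 for replicates 1, 2 and 3. The lowest pair was at -0.39. These values cannot show whether the numbers pair the libraries, since different-numbered libraries were not compared. Of 70 group levels, 2 moved by more than their SD under TMM scaling, Lamp2 in TTR-1236 2 µM (207 CPM) and Ctsd in Reference 4 0.2 µM (1364 CPM). Causes were not tested. With 3 libraries a group, the 95% interval for Eea1 with 2 µM TTR-1236 against PBS ran from -3.01 to -1.31. The Eea1 difference of -1.21 with 2 µM TTR-1186 was not called (limma, adjusted p = 0.339). A difference that was not called therefore does not show an unchanged level.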
